A study of Mus musculus with 23 samples.

Results

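The experiment set hippocampal RNA of P301S tau mice exposed to hypoxia against that of P301S tau mice kept in normal air. Its members were the libraries whose genotype label is P301S: 5 labelled normoxia and 6 labelled hypoxia, 11 of the 23 libraries of the series. The other 12 libraries, 6 wild-type (WT) normoxia and 6 WT hypoxia, entered the same statistical model and served as a comparison. Per the labels, all mice had a mixed C57Bl6 and Balbc background, and all RNA came from whole, flash-frozen hippocampus with a RIN above 9. P301S names a substitution in human tau that causes familial frontotemporal dementia, and mice that carry it as a transgene form neurofibrillary tangles. The series title calls the exposure chronic intermittent hypoxia, and its subject is how that exposure acts on tau pathology, memory and molecular signatures. Not given in the sources used here are the transgene's promoter, the hypoxia regimen, the mice's age and sex and the hour of tissue collection. Whether the libraries of a group are from different animals is not stated, so each p-value reflects spread among libraries, which may be technical.

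Intermittent hypoxia repeats short falls in oxygen, as in sleep apnoea, and its known consequences include oxidant production, release of stress hormones and disturbed sleep. Cells sense oxygen through the HIF transcription factors, which prolyl hydroxylases mark for destruction while oxygen is present and which otherwise switch on genes for glucose uptake, glycolysis and blood vessel growth. In the hippocampus, neuronal firing switches on immediate early genes such as Fos and Arc within minutes, the clock genes oscillate over the day, and glucocorticoids act through receptors that are abundant there.

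The P301S libraries held 23.1 to 25.4 M counts in normoxia and 23.8 to 25.8 M in hypoxia, with 2.31% to 2.72% and 2.35% to 2.99% of counts from mitochondrial genes. Libraries of 1 group correlated at 0.984 to 0.993 in normoxia and 0.984 to 0.99 in hypoxia (log2 CPM, across genes), and every pair differed by more than sampling noise. Markers of hippocampal neurons were abundant. Those of CA1 pyramidal neurons summed to 755 to 923 CPM (TMM-normalised counts scaled to a common library size) and the CA2 and CA3 markers to 1510 to 2040 CPM over the 11 libraries. The neocortex and subiculum markers summed to 756 to 852 CPM in P301S normoxia and 679 to 804 CPM in P301S hypoxia, so such sums do not tell the regions apart. The counts are of mouse genes, and the genotype labels were not checked by the human transgene. Mouse Mapt, which encodes tau, stood at 676, 716, 711, 681 and 780 CPM in the 5 normoxia libraries and at 611 to 758 CPM, median 671, in the 6 hypoxia libraries. These ranges overlapped (log2 fold change -0.07 ± 0.0544 SE, edgeR adjusted p = 0.586). A set of 6 libraries stood apart by low choroid plexus markers, with a gap of 1.08 log2 units to the next: WT normoxia replicate 4, WT hypoxia replicates 1, 4 and 5, and P301S hypoxia replicates 1 and 4. Counts of calls are given with and without them.

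Most changes that accompanied hypoxia were small. Of 17788 genes tested, 73 were called at an edgeR quasi-likelihood adjusted p below 0.05, or 0.41%. Of these, 32 were higher in hypoxia (0.18% of the genes tested) and 41 lower (0.23%). Unadjusted, 2450 genes had a p below 0.05. The number depended on the method: DESeq2 called 363 genes (206 higher and 157 lower), and edgeR with trends in gene length and GC content removed called 305 (191 higher and 114 lower). Fold changes are log2 values of hypoxia over normoxia throughout. The median absolute change of the called genes was 0.44, from 0.19 to 1.66, and 9 genes changed by more than 1. Protein-coding genes made up 63 of the 73, 31 of those higher and 32 of those lower. The hypoxia and normoxia libraries did not overlap in 58 of the called genes, 28 higher and 30 lower, against 2.13% of all genes tested (1.01% higher and 1.12% lower). Since the genes were called on these same libraries, that excess is fixed in part by the choice. The plot of fold changes in both genotypes shows each called gene with its error.

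**Figure D1:**
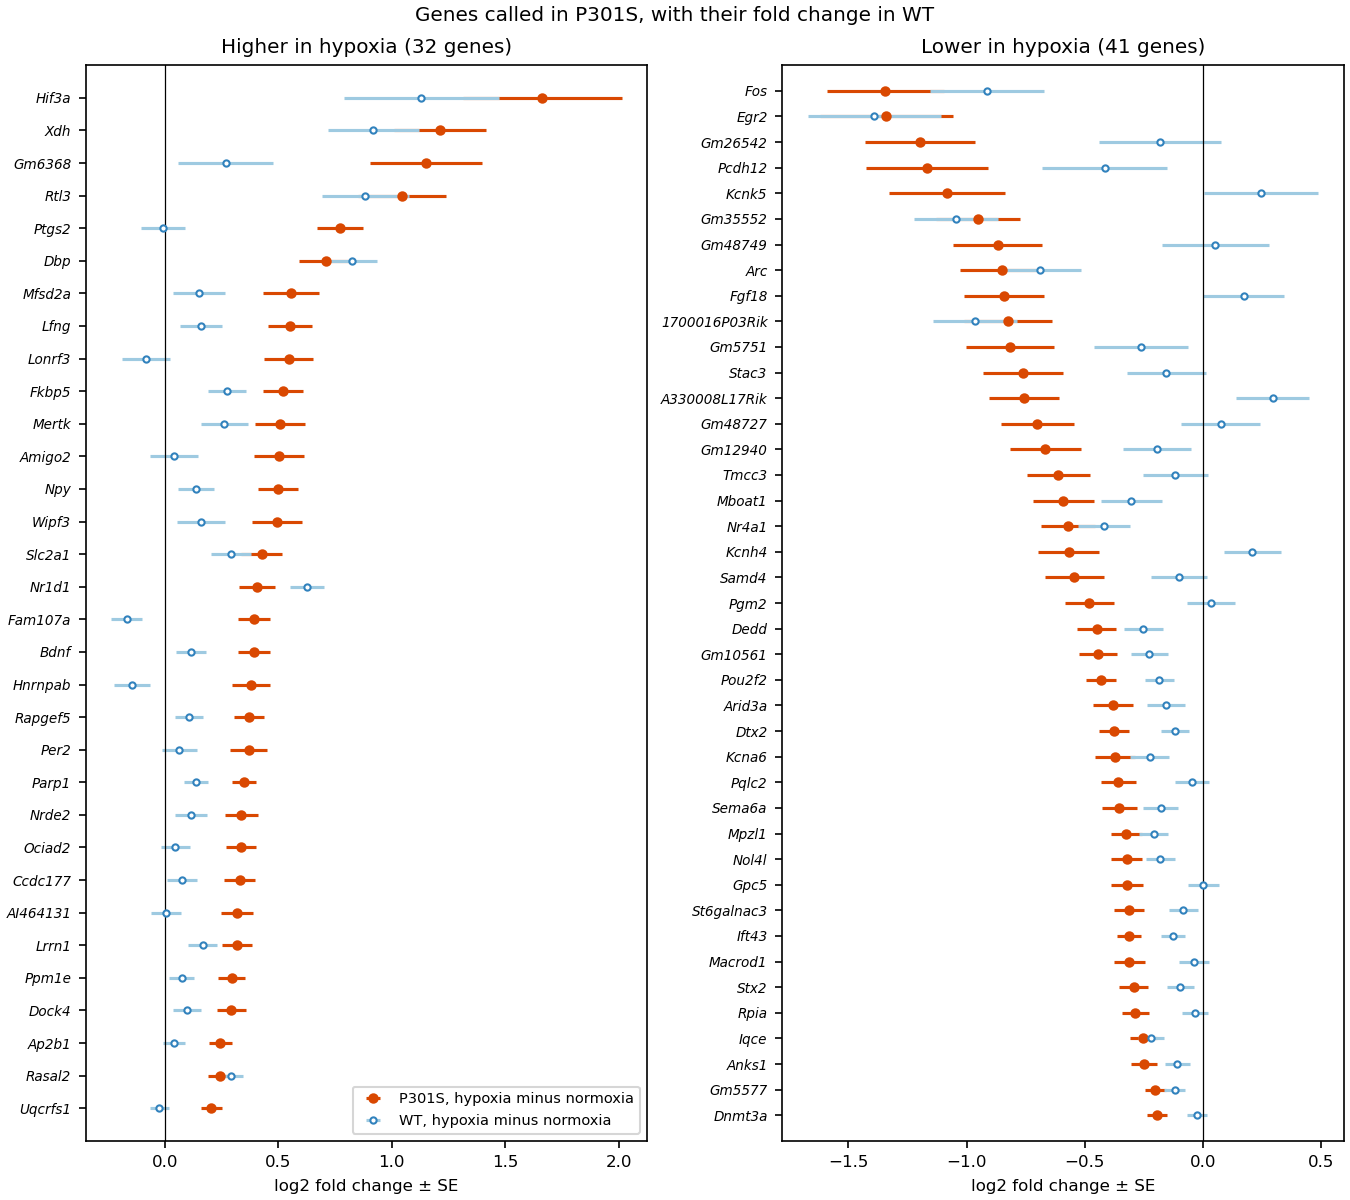
Log2 fold change of hypoxia over normoxia, with its standard error, for the 32 genes called higher (left) and the 41 called lower (right) in P301S (filled orange) and for the same genes in WT (open blue). Most P301S changes lay within 1 log2 unit of 0, and the WT values lay nearer to 0 for 67 of the 73 genes. The choice of genes by their P301S values fixes that count in part.

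The number of calls rested on single libraries. It was 2 without P301S normoxia replicate 3, 14 without P301S normoxia replicate 4 and 156 without P301S normoxia replicate 1. Omitting normoxia replicates 2 and 5 gave 47 and 42 calls. Leaving out hypoxia replicates 1 to 6 in turn gave 34, 33, 24, 28, 46 and 28. Of the WT libraries, which enter only through the shared spread and scaling, WT normoxia replicate 2 and WT hypoxia replicate 4 moved it most, to 35 and 36. Without the 6 libraries low in choroid plexus markers 47 genes were called, 28 of them among the 73. Over the 11 omissions of a P301S library and the 10 other settings tried, Ptgs2 and Pou2f2 alone were called throughout. None of the 73 changed sign, which their choice on these same libraries fixes in part.

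Among the immediate early and activity-regulated genes, the transcription factors Fos and Egr2, the orphan nuclear receptor gene Nr4a1 and the synaptic plasticity gene Arc fell, and the neurotrophin gene Bdnf rose. The other 29 of the 34 tested members were not called, and 15 of the 34 had a positive change. Their median was -0.076, against -0.0033 for all genes, of which 49.1% were positive. In WT the same list had a median of -0.251. In P301S, 16 of its 34 tested genes had an unadjusted p below 0.05, against 2450 of all 17788.

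Fos encodes a subunit of the AP-1 transcription factor and is a widely used marker of recent neuronal activity. Its promoter is shown because CREB sites upstream of the gene are a known route from calcium entry to Fos, with the core letters of such a site, TGACG, in capitals. The sequence is from RefSeq (GRCm38.p6), chr12:85473640-85473939, plus strand, from 250 bases before to 50 bases after the start.
Fos promoter: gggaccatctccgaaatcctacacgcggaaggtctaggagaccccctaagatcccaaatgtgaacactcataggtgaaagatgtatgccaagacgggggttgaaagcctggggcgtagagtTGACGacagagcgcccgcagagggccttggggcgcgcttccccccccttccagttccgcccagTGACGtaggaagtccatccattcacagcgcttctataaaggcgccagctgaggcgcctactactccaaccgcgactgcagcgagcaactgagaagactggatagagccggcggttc
TGACG begins 129 and 66 bases before the start, and 20.8% of 32851 RefSeq promoters of this length hold it on either strand. No full CRE (TGACGTCA), AP-1 site (TGANTCA) or CArG box is in this window; these occur in 1.79%, 7.81% and 1.63% of promoters.

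Fos (chromosome 12, 85473890 to 85477273) stood at 12.5, 10.7, 20.9, 18.5 and 19 CPM in normoxia and at 3.51 to 8.61 CPM, median 6.68, in hypoxia. All 6 hypoxia libraries lay below the lowest normoxia library. The change was -1.34 ± 0.249 (SE, adjusted p = 0.021), and in WT it was -0.91 (adjusted p = 0.124). The Fos call was kept in 9 of the 11 fits that omit 1 P301S library and lost without normoxia replicates 3 or 4, with an adjusted p up to 0.0742.

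Nr4a1 read 76.7, 71.1, 109, 94.1 and 101 CPM in normoxia and 50.7 to 69.2 CPM, median 60.5, in hypoxia, again without overlap (-0.57 ± 0.114, adjusted p = 0.0286). Arc, whose mRNA travels to active synapses, had 127, 117, 207, 166 and 202 CPM in normoxia and 62.6 to 121 CPM, median 91.4, in hypoxia (-0.85 ± 0.178, adjusted p = 0.0436). Egr2 was sparse, at 2.37, 2.15, 4.37, 4.27 and 5.44 CPM in normoxia and 0.813 to 2.17 CPM, median 1.44, in hypoxia (-1.34 ± 0.282, adjusted p = 0.0399). For Arc and Egr2 the groups overlapped slightly. In all of these genes normoxia replicates 1 and 2 were the lowest of their group and replicates 3, 4 and 5 the highest. Nr4a1 kept its call in 4 of the 11 single omissions, Arc and Egr2 in 3 each, and the highest adjusted p values were 0.102, 0.117 and 0.125.

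The transcript 1700016P03Rik fell too and was chosen here after its values were seen. It spans chromosome 11, 75172560 to 75177633, and is the host of the activity-regulated microRNA genes Mir212 and Mir132. Their main mature products are shown, since they share a seed (bases 2 to 8, in capitals) and lie inside the measured transcript, at chr11:75173443-75173464 and chr11:75173723-75173744 on the plus strand (RefSeq, GRCm38.p6).
mmu-miR-212-3p: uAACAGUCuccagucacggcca
mmu-miR-132-3p: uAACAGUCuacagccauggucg
The host transcript stood at 8.48, 9.02, 13.9, 14.2 and 17.6 CPM in normoxia and at 4.62 to 9.6 CPM, median 7.12, in hypoxia. Its groups overlapped, and normoxia replicates 1 and 2 were again the lowest of theirs. The change was -0.82 ± 0.186 (adjusted p = 0.0485), and it was also called in WT at -0.96 (adjusted p = 0.0428). Another gene, Ovca2, overlaps 36.4% of its length, and reads there were not counted for either. The call was kept in 3 of 11 single omissions (highest adjusted p 0.176). The mature microRNAs were not measured.

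Bdnf, whose protein supports synaptic strengthening, rose while the other called genes of the list fell. It had 32.4, 31.2, 28.8, 27.7 and 34 CPM in normoxia and 35.6 to 43.9 CPM, median 41.3, in hypoxia. The groups did not overlap (0.39 ± 0.0709, adjusted p = 0.0161), and the call was lost without normoxia replicates 3 or 4 (highest adjusted p 0.0684). Vgf, a neuropeptide precursor on the same list that neurotrophins switch on, was 0.46 higher without a call (adjusted p = 0.13). RefSeq lists 7 promoters for Bdnf in this window length, and the counts do not separate its transcripts. Of the 18 neurotrophin genes and receptors tested, Bdnf alone was called, 13 had a positive change and the median was 0.093. Unadjusted, 9 of the 18 had a p below 0.05, against 2450 of all 17788 genes tested. The neurotrophin receptor gene Ngfr stood at -0.66 (adjusted p = 0.161).

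Among the 21 clock genes tested, Dbp, Nr1d1 and Per2 rose and no other was called. The median of the list was -0.006, and 10 of the 21 changes were positive. Unadjusted, 11 of the 21 had a p below 0.05, against 2450 of all 17788 genes tested. Those called are clock outputs and repressors. Dbp is a PAR bZIP transcription factor driven by the CLOCK and BMAL1 complex, and Nr1d1 encodes the repressor REV-ERB alpha. Per2 encodes part of the complex that inhibits CLOCK and BMAL1.

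Dbp (chromosome 7, 45705088 to 45710203) read 29.5, 23.6, 22.4, 24.3 and 18.3 CPM in normoxia and 35.1 to 41.5 CPM, median 39.1, in hypoxia. All 6 hypoxia libraries lay above all 5 normoxia libraries, and the change was 0.71 ± 0.117 (adjusted p = 0.0109). In WT it was 0.82 (adjusted p = 0.00102). Sphk2 overlaps 14.4% of Dbp, and reads there were dropped.

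Nr1d1 had 92.4, 79.6, 82.5, 91.1 and 70.3 CPM in normoxia and 98.3 to 120 CPM, median 110, in hypoxia (0.41 ± 0.08, adjusted p = 0.0272; WT 0.63, adjusted p = 0.000409). Per2 stood at 59.2, 46.2, 50.4, 56 and 50.7 CPM in normoxia and 61 to 74.4 CPM, median 67.5, in hypoxia (0.37 ± 0.0804, adjusted p = 0.0448). Neither gene's groups overlapped, but the margins were small, 92.4 against 98.3 CPM for Nr1d1 and 59.2 against 61 CPM for Per2. In WT the change of Per2 was 0.06 (adjusted p = 0.791), and the difference between genotypes was 0.31 (adjusted p = 0.373). Dbp kept its call in 10 of 11 single omissions and lost it without normoxia replicate 3 (highest adjusted p 0.0539), Nr1d1 in 6 and Per2 in 2. Without the 6 libraries low in choroid plexus markers Nr1d1 and Per2 had adjusted p values of 0.0882 and 0.0866.

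The promoters of Dbp and Nr1d1 were searched on both strands for the clock elements E-box (CACGTG), D-box (TTATGNAA) and RORE (TAGGTCA), which 7.15%, 3.38% and 2.61% of promoters hold. Neither window holds any of them. ACGTGC, a form of the core of the hypoxia response element, was searched too, and 5.91% of promoters hold it. Nr1d1 has 1 match. It is shown in capitals because Nr1d1 is the gene of this group with the lowest p in WT. Of the windows searched, those of 5 genes with 7 for Bdnf, only this one holds that match. Whether the match acts was not tested. The Nr1d1 window is chr11:98775328-98775627, minus strand, and the match begins 27 bases before the start.
Nr1d1 promoter: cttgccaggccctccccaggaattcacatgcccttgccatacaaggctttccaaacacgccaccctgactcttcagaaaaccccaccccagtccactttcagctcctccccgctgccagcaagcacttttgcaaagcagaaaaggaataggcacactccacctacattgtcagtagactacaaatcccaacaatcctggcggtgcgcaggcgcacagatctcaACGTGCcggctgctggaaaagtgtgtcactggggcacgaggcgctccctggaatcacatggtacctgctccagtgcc

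Ptgs2 was the gene with the lowest p. It encodes cyclooxygenase-2, the inducible enzyme that makes prostaglandin H2 from arachidonic acid and that excitatory neurons also make in response to activity. Ptgs2 (ENSMUSG00000032487, chromosome 1, 150100031 to 150108227) had 19.3, 17.9, 14, 15.3 and 20.8 CPM in normoxia and 27.8 to 34 CPM, median 28.7, in hypoxia. Every hypoxia library lay above the highest normoxia library. The change was 0.77 ± 0.102 (adjusted p = 0.00158). Over the 11 single omissions it ran from 0.7 to 0.84, with an adjusted p of at most 0.0143.

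In WT, Ptgs2 was not called, with 17.9 to 21.9 CPM, median 20.3, in normoxia and 14.9 to 23.6 CPM, median 20.5, in hypoxia (-0.01 ± 0.098, adjusted p = 0.984). The difference of the hypoxia effect between genotypes was 0.78 (adjusted p = 0.0407). The call was kept in 4 of 23 fits that omit 1 library (adjusted p 0.0245 to 0.119), and its adjusted p was 0.0691 with the older quasi-likelihood method of edgeR. The Ptgs2 promoter is shown for its motif matches at chr1:150099781-150100080, plus strand (RefSeq, GRCm38.p6).
Ptgs2 promoter: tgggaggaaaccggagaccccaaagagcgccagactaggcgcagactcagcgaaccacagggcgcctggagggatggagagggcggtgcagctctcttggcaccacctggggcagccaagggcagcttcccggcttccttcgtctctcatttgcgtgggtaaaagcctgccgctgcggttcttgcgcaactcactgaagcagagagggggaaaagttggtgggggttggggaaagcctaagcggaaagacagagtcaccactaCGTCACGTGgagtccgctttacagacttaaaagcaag
The capitals cover an E-box, CACGTG, that begins 16 bases after the start and, overlapping it, the core letters of a CREB site, which begin 13 bases after the start and read CGTCA on this strand.

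The rest of the prostaglandin list was not called: 20 of 21 tested members, median 0.027, with 11 positive. Hpgds, a prostaglandin D synthase, stood at -0.29 (adjusted p = 0.165) and Ptges, the inducible prostaglandin E synthase, at -0.43 (adjusted p = 0.197).

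Xdh rose most but for Hif3a. Xanthine dehydrogenase, its product, carries out the last steps of purine breakdown to uric acid and, in its oxidase form, releases superoxide. Xdh (chromosome 17, 73883908 to 73950182) read 6.16, 3.35, 4.83, 5.46 and 4.41 CPM in normoxia and 8.26 to 15.8 CPM, median 10.5, in hypoxia. The groups were apart (1.21 ± 0.203, adjusted p = 0.0109), and the call was lost in 1 of 11 omissions, without normoxia replicate 3 (adjusted p 0.0539). The WT change was 0.92 (adjusted p = 0.0824). No other of the 19 purine genes tested was called. The adenosine receptor gene Adora1 stood at 0.22 (adjusted p = 0.191), and the median of the list was 0.032. The NRF2, antioxidant and oxidant-producing genes held no call among 25, with a median of 0.008 and 13 positive. The lowest p was that of Srxn1, which repairs oxidised peroxiredoxins (0.20, adjusted p = 0.123).

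In the oxygen-sensing pathway, Hif3a was the only one of 9 subunit and hydroxylase genes called and Slc2a1 the only one of 35 HIF target genes. Hif3a encodes the HIF-3 alpha subunit, known as a HIF target and, in some of its forms, as an inhibitor of the other subunits. It stood at 5.17, 8.37, 4.99, 5.69 and 5.79 CPM in normoxia and at 12.3 to 29.6 CPM, median 18.3, in hypoxia. The groups did not overlap, and the hypoxia libraries were spread more widely than the normoxia ones. This was the largest of the called changes, at 1.66 ± 0.35 (adjusted p = 0.0439). The Hif3a call was kept in 1 of 11 single omissions (highest adjusted p 0.135). It was lost with no filter on low counts (adjusted p 0.0744), with the choroid plexus marker score as covariate (0.0549) and without the 6 libraries low in those markers (0.11). In WT the change was 1.13 (adjusted p = 0.189).

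Slc2a1 encodes the glucose transporter GLUT1 of the blood-brain barrier. It had 22.4, 17.1, 21.4, 25.1 and 19.9 CPM in normoxia and 26.5 to 30.9 CPM, median 28.3, in hypoxia, with no overlap (0.43 ± 0.0912, adjusted p = 0.0436). Mfsd2a, the lipid transporter of the same barrier, read 13.7, 11.2, 11.2, 13.4 and 13.3 CPM in normoxia and 16.5 to 20.8 CPM, median 18.4, in hypoxia (0.56 ± 0.122, adjusted p = 0.0448). They were the 2 endothelial markers called of 15 tested, of which 10 were positive, with a median of 0.116 and 5 at an unadjusted p below 0.05. Over all 17788 genes tested, 73 were called and 2450 had such a p. Of the other endothelial markers, Cldn5 stood at -0.08, Pecam1 at 0.17 and Cdh5 at 0.06, each with overlapping groups. In bulk tissue, fewer or more cells of a type and less or more RNA per cell cannot be told apart. Slc2a1 kept its call in 2 of 11 omissions and Mfsd2a in 1, with adjusted p values up to 0.109 and 0.122. Without the 6 libraries low in choroid plexus markers their adjusted p values were 0.0866 and 0.0882.

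The other HIF genes were not called. The median of the targets was 0.041, with 21 of 35 positive, 8 at an unadjusted p below 0.05 and a range from -1.22 to 0.43. Over all 17788 genes tested, 2450 had such a p. The transferrin receptor gene Tfrc stood at 0.25 (adjusted p = 0.105), the glycolytic regulator Pfkfb4 at -0.19 (adjusted p = 0.133), the HIF-2 alpha gene Epas1 at 0.16 (adjusted p = 0.329) and the partner subunit gene Arnt at -0.16 (adjusted p = 0.173). The gene for HIF-1 alpha, Hif1a, overlaps another gene over more than 90% of its length and had 0 counts.

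Fkbp5 was the called member of the glucocorticoid list. It encodes a co-chaperone that lowers the hormone affinity of the glucocorticoid receptor and is itself switched on by the receptor. Fkbp5 (chromosome 17, 28399095 to 28517524) read 55, 60, 48.6, 50.1 and 57.1 CPM in normoxia and 70.2 to 88.5 CPM, median 77.2, in hypoxia. Every hypoxia library was above every normoxia library (0.52 ± 0.0896, adjusted p = 0.0127), and the call was lost only without normoxia replicate 3 (adjusted p 0.062). In WT the change was 0.27 (adjusted p = 0.193), and the difference between genotypes was 0.25 (adjusted p = 0.536).

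The list as a whole had the highest median of the 25 pathway lists, 0.196, with 14 of 17 members positive, and its WT median was -0.012. Unadjusted, 9 of the 17 had a p below 0.05, against 2450 of all 17788 genes tested. The list was described by these values and not tested as a list. All lists were chosen with earlier results of these data known, so its rank among them is not independent of these data. Sgk1, a kinase gene that corticosteroids switch on, had 54 to 59.2 CPM in normoxia and 63.5 to 120 CPM, median 74.5, in hypoxia, with a change of 0.52 that missed the threshold (adjusted p = 0.0525). Zbtb16, a transcription factor gene and a direct target of the receptor, had 94.9 to 121 CPM and 125 to 157 CPM (0.35, adjusted p = 0.0734). Neither gene's groups overlapped.

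**Figure D2:**
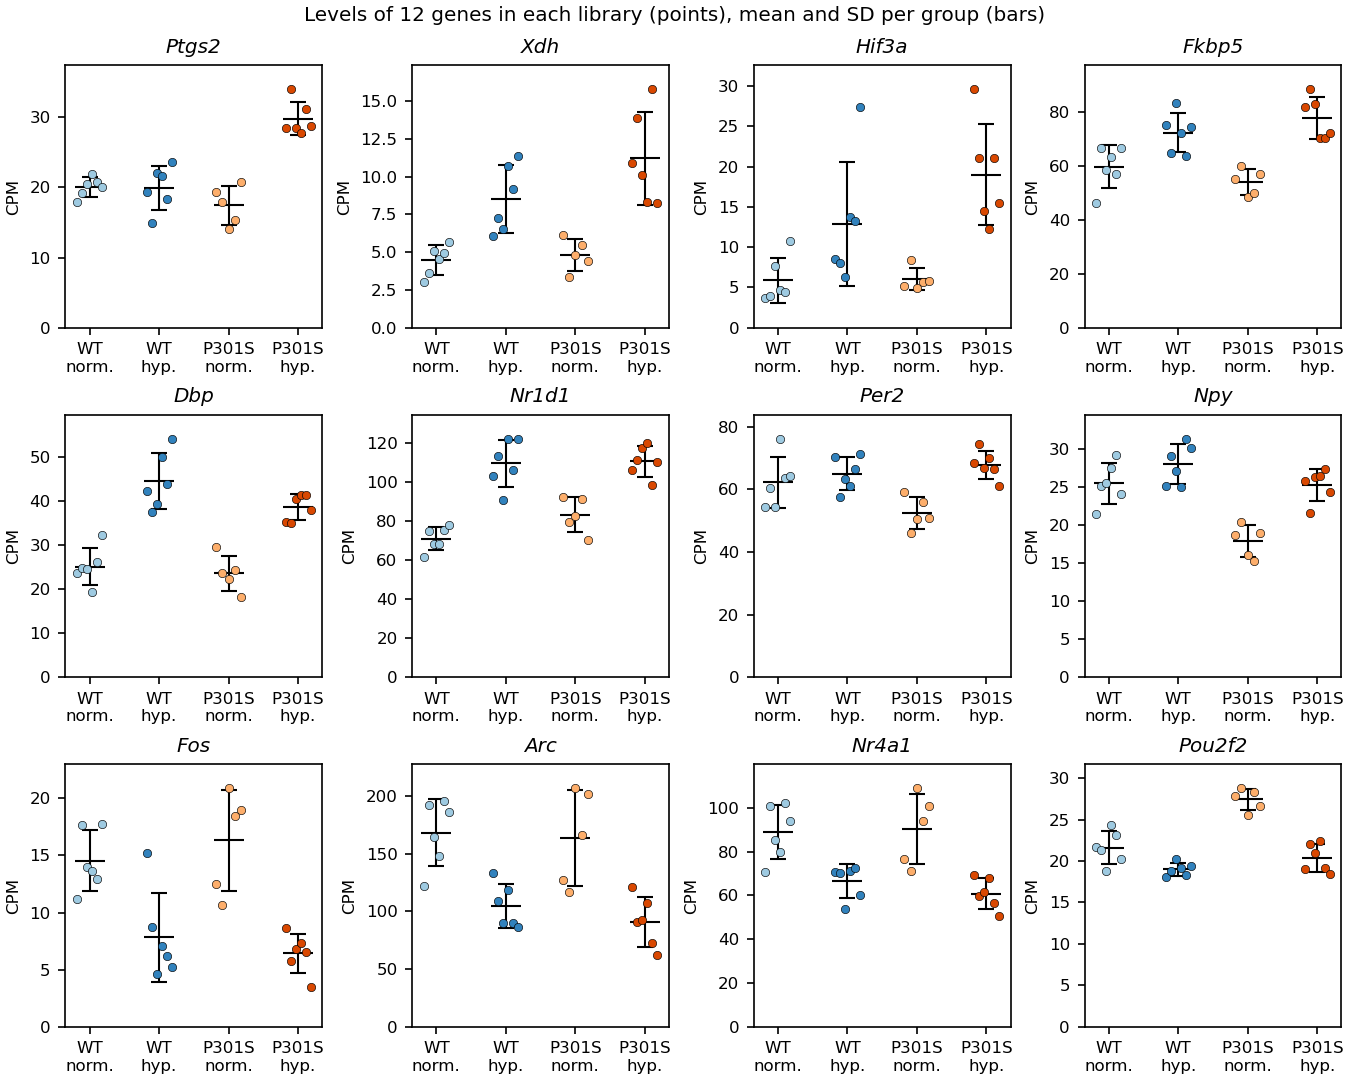
Normalised CPM of 12 genes in every library of the 4 groups, each point 1 library, with the mean ± SD (n = 6, 6, 5 and 6). Ptgs2, Xdh, Hif3a, Fkbp5, Dbp, Nr1d1, Per2 and Npy were higher and Fos, Arc, Nr4a1 and Pou2f2 lower in P301S hypoxia than in P301S normoxia. In WT only the groups of Xdh, Dbp and Nr1d1 were apart, and those of the other genes shown, Ptgs2 among them, overlapped.

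Of 20 neuropeptide genes, Npy rose and no other was called. Neuropeptide Y is released by a class of hippocampal interneurons and dampens excitation. Npy had 18.6, 20.4, 16.1, 15.3 and 18.9 CPM in normoxia and 21.5 to 27.3 CPM, median 26, in hypoxia, without overlap (0.50 ± 0.0874, adjusted p = 0.0134). The WT libraries, at 21.4 CPM and above, all lay above the P301S normoxia libraries. It lost its call without normoxia replicates 3 or 4 (highest adjusted p 0.0631). Sst, which shares interneurons with Npy, stood at 0.27 (adjusted p = 0.249). The median of the list was 0.12, with 15 positive. Of 14 interneuron markers Npy alone was called. The enzyme gene Gad1, made by all GABA neurons, stood at 0.07 with overlapping groups.

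In the Notch pathway, Lfng rose. It encodes the glycosyltransferase lunatic fringe, which tunes the choice of ligand by Notch receptors. It read 13.3, 12.2, 12.3, 12.7 and 10.5 CPM in normoxia and 16.2 to 19.7 CPM, median 17.8, in hypoxia (0.55 ± 0.0969, adjusted p = 0.0134). The other 21 tested genes of the list were not called, 11 of the 22 were positive and the median was -0.01. Unadjusted, 7 of the 22 had a p below 0.05, against 2450 of all 17788 genes tested. Rbpj, the transcription factor of the pathway, stood at 0.70 (adjusted p = 0.0742). Dtx2, a Deltex ubiquitin ligase gene that is not on the list, fell from 16.7, 15.5, 17.2, 17.4 and 15.2 CPM to 12 to 13.4 CPM, median 12.6 (-0.37 ± 0.0628, adjusted p = 0.0109). Both genes' groups were apart, and both calls were lost without normoxia replicate 3 (adjusted p 0.0574 for Lfng and 0.0539 for Dtx2). Lfng was also not called without the 6 libraries low in choroid plexus markers (adjusted p 0.0587).

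The remaining genes that rose included Parp1, which encodes the main poly(ADP-ribose) polymerase of the response to DNA breaks. It had 137, 124, 123, 115 and 135 CPM in normoxia and 153 to 177 CPM, median 158, in hypoxia (0.35 ± 0.0547, adjusted p = 0.00843, the lowest of the higher genes after Ptgs2). Rapgef5, an exchange factor gene for the GTPase Rap, read 246, 276, 239, 247 and 271 CPM and 322 to 350 CPM, median 329 (0.37 ± 0.0655, adjusted p = 0.0135). Fam107a, a stress-responsive gene of astrocytes and neurons also named DRR1, stood at 325, 253, 298, 321 and 316 CPM and at 366 to 462 CPM, median 391 (0.39 ± 0.0712, adjusted p = 0.0161). None of these overlapped between the groups. Of the single omissions, that of normoxia replicate 3 ended the calls of Parp1 and Fam107a (adjusted p 0.0503 and 0.0637), and that of replicates 3 or 4 the call of Rapgef5. Fam107a was also not called without the 6 libraries low in choroid plexus markers (0.33, adjusted p 0.0595).

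Further rises, all with adjusted p values from 0.019 to 0.0485, were found in genes of varied roles. Rtl3, a gene derived from a retrotransposon, had 1.12 to 2.76 CPM in normoxia and 3.57 to 4.65 CPM in hypoxia, a rise of 1.05. Mertk, a receptor with which microglia and astrocytes clear debris, rose by 0.51, with overlapping groups. Amigo2, an adhesion gene of CA2 and CA3 neurons, rose by 0.50 and lost its call in every single omission. Uqcrfs1, the Rieske subunit of respiratory complex III, had 60 to 68.5 CPM in normoxia and 69.3 to 77.5 CPM in hypoxia, a rise of 0.20. It was the only call among 26 nuclear oxidative phosphorylation genes, of which 22 were positive with a median of 0.081. Rtl3 kept its call in 9 of 11 single omissions, Mertk in 3 and Uqcrfs1 in 2, with adjusted p values up to 0.074, 0.132 and 0.171.

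Pou2f2, which encodes the POU transcription factor OCT2, was the gene that fell with the lowest p. It had 27.9, 28.8, 25.6, 28.3 and 26.6 CPM in normoxia and 18.4 to 22.4 CPM, median 20.1, in hypoxia. The groups were apart, and the change of -0.43 ± 0.0639 (adjusted p = 0.00552) ran from -0.46 to -0.4 over the single omissions, with an adjusted p of at most 0.0272. The WT libraries stood at 18.8 to 24.4 CPM in normoxia and 18.1 to 20.2 CPM in hypoxia, near the P301S hypoxia level. The WT change was -0.18 (adjusted p = 0.234), and the difference between genotypes was -0.25 (adjusted p = 0.376).

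Ift43, a component of the transport machinery of cilia, fell from 35.6, 37.4, 39.7, 42.2 and 38.5 CPM to 29.5 to 33.2 CPM, median 31.1 (-0.31 ± 0.052, adjusted p = 0.0109). Dedd, a death effector domain gene, fell from 10.3, 11.7, 11.1, 12.4 and 11.5 CPM to 7.49 to 9.32 CPM, median 8.29 (-0.45 ± 0.0831, adjusted p = 0.0185), with 32.8% of its length overlapped by Nit1. Rpia, the ribose 5-phosphate isomerase gene of the pentose phosphate pathway, read 21.5, 19.8, 19.6, 19.3 and 19.7 CPM against 14.3 to 18.1 CPM, median 16.5 (-0.29 ± 0.0576, adjusted p = 0.0286). These groups did not overlap either.

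Further falls at the same adjusted p of 0.0286 were those of Nol4l (-0.32 ± 0.0649, 113 to 125 CPM against 84 to 103 CPM), Mpzl1, a cell surface glycoprotein gene (-0.32 ± 0.0654, 44.1 to 51.4 CPM against 34.5 to 42.2 CPM), and St6galnac3, a sialyltransferase gene (-0.31 ± 0.0627, 46.8 to 62.7 CPM against 40.1 to 47 CPM, overlapping). Ift43 lost its call without normoxia replicate 3 alone (adjusted p 0.0539). Dedd lost it without replicates 3 or 4, and Rpia, Mpzl1 and St6galnac3 kept it in 4 of 11 omissions each. Nol4l kept it in 6.

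Dnmt3a, a de novo DNA methyltransferase gene that is active in adult neurons, had 174 to 188 CPM in normoxia and 151 to 164 CPM in hypoxia, and fell by 0.19 (adjusted p = 0.0456). Gpc5, a heparan sulphate proteoglycan gene of astrocytes, had 44.4 to 51.1 CPM and 35.6 to 41.9 CPM, and fell by 0.32 (adjusted p = 0.0399) and was the only 1 of 13 astrocyte markers called. The potassium channel genes Kcna6 (-0.37), Kcnh4 (-0.57) and Kcnk5 (-1.08) fell with an adjusted p of 0.0485 each. Kcna6 is overlapped over 68% of its length by Gm26673, and Kcnk5, with a mean below 1 CPM, lay outside the rule for naming genes and was chosen after its values were seen. None of the 36 potassium, calcium and sodium channel genes on the channel list was called, 28 of them were positive and their median was 0.047. Fgf18, a fibroblast growth factor gene, had 2.04 to 2.84 CPM and 1.12 to 1.6 CPM, and fell by 0.84 (adjusted p = 0.0286). Few of these calls were kept when 1 library was omitted: Fgf18 kept its call in 3 of the 11 single omissions, Gpc5, Kcna6 and Kcnk5 in 2 each and Dnmt3a and Kcnh4 in 1 each, with adjusted p values up to 0.2.

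**Figure D3:**
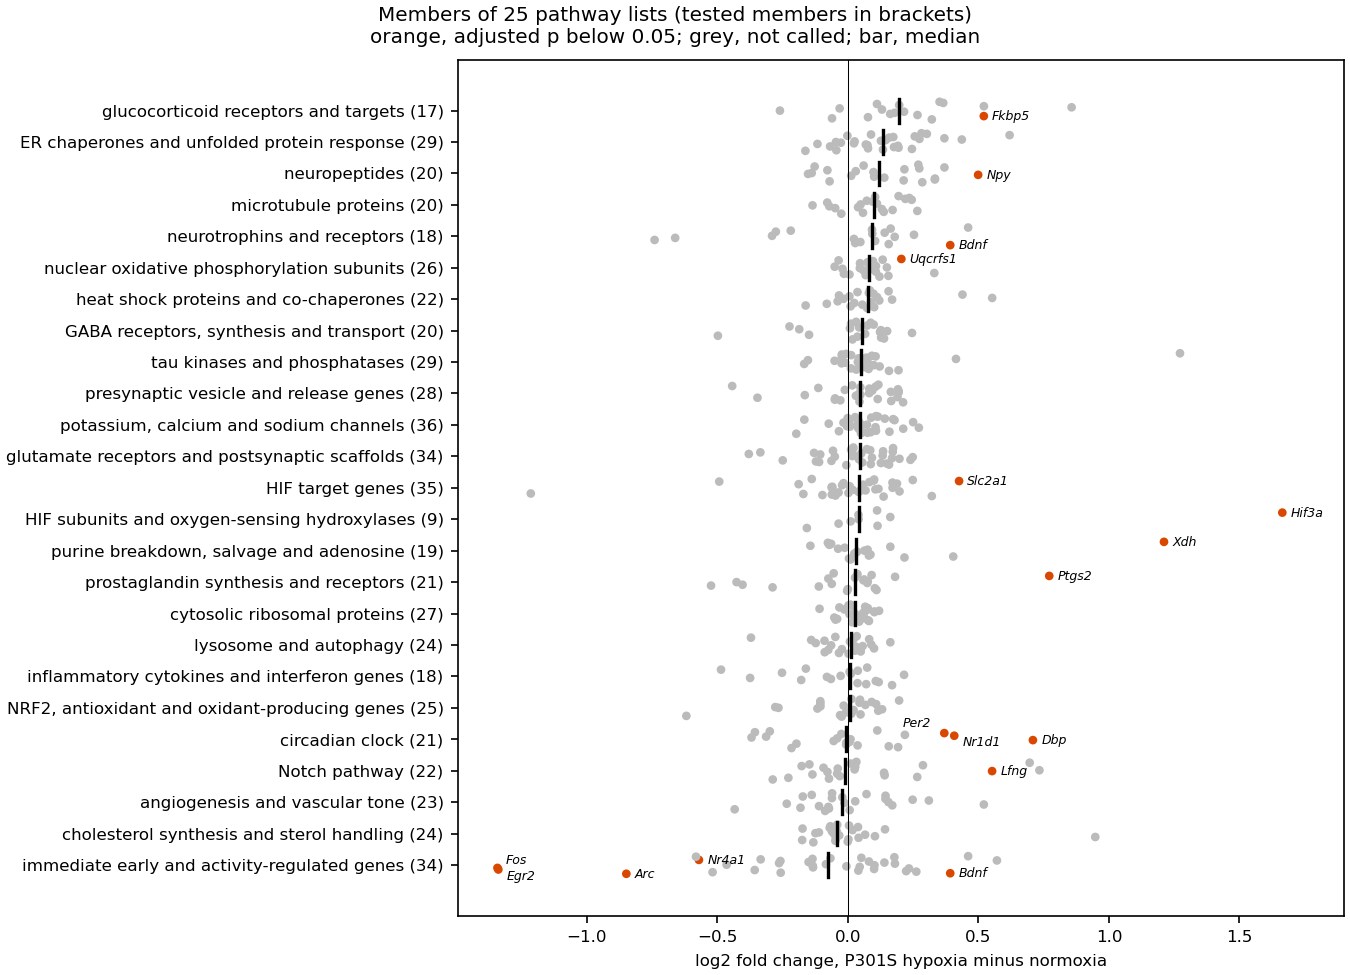
Log2 fold change of hypoxia over normoxia in P301S for each tested member of 25 pathway lists, ordered by their medians (bars). Called members are orange and named, and the uncalled ones grey. Medians ran from -0.076 for the immediate early genes to 0.196 for the glucocorticoid genes.

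The lists of genes that act on tau and at synapses held no call. Of 29 tau kinase and phosphatase genes 21 were positive with a median of 0.05. The phosphatase gene Ppp1ca stood at 0.41 (adjusted p = 0.199), and Mark3, a kinase gene of the microtubule-binding repeats of tau, at -0.15. Of 20 microtubule protein genes 15 were positive with a median of 0.1, including Tuba4a at 0.24 (adjusted p = 0.135) and Map1b at 0.27 (adjusted p = 0.137). Postsynaptic genes had a median of 0.047 over 34, with Dlg3, a scaffold of NMDA receptors, at 0.16 (adjusted p = 0.0869). Presynaptic genes had 0.048 over 28, with the vesicle protein gene Syp at 0.19 (adjusted p = 0.16). GABA genes had 0.054 over 20, with the receptor subunit gene Gabra2 at -0.50 (adjusted p = 0.158). A p above the threshold does not show that these genes were alike in the groups.

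Protein folding genes were not called either. Of 29 endoplasmic reticulum chaperone and unfolded protein response genes 22 were positive, with a median of 0.134 in P301S against -0.14 in WT. Hspa5, the central chaperone known as BiP, had a mean of 213 CPM in normoxia and 288 CPM in hypoxia in P301S (0.44, adjusted p = 0.0766), and of 290 CPM and 223 CPM in WT (-0.37, adjusted p = 0.147). The difference between genotypes was called (0.81, adjusted p = 0.0435). Calr, calreticulin, lay outside the rule for naming genes and was chosen after its values were seen. It had 0.25 in P301S (adjusted p = 0.0999) and -0.29 in WT (adjusted p = 0.0824), with a called difference of 0.53 (adjusted p = 0.0407). No such difference was called for any gene with the older method of edgeR or without the 6 libraries low in choroid plexus markers, where 1650 and 1035 genes had an unadjusted p below 0.05, and single omissions gave 0 to 13 calls. Of 22 heat shock genes 17 were positive with a median of 0.077.

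Inflammatory genes (18 tested, median 0.009), lysosome and autophagy genes (24, 0.013), cholesterol genes (24, -0.042), angiogenesis genes (23, -0.021) and cytosolic ribosomal protein genes (27, 0.027) lay close to the median of all genes, and none was called. The lysosomal regulator gene Tfeb stood at -0.37 (adjusted p = 0.0772).

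The WT contrast shares no library with the P301S contrast and gave a comparison. In WT, 13 genes were called, or 0.0731%. Of the 73 genes called in P301S, 60 had the same sign in WT (82.2%), against 55.9% of all genes tested. The WT groups did not overlap in 8 of the 73 (Dbp, Xdh, Gm35552, Nr1d1, Egr2, Rasal2, Iqce and 1700016P03Rik), against 0.691% of all genes, and these 8 had the same sign in P301S. Only 5 were called in both, with the same sign: Dbp, Nr1d1, Rasal2, Gm35552 and 1700016P03Rik, which are 6.85% of the P301S calls and 38.5% of the WT calls. Rasal2, a GTPase-activating gene for Ras, rose by 0.24 in P301S (adjusted p = 0.0485) and by 0.29 in WT (adjusted p = 0.0428), and its P301S call was kept in 0 of 11 single omissions. The lincRNA Gm35552 fell by 0.95 in P301S and by 1.04 in WT. The last 2 named are predicted or clone names outside the rule for naming genes and were chosen after their values were seen.

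The 32 genes higher in P301S had a median change of 0.4 there and 0.13 in WT, and the 41 lower ones -0.48 and -0.15. Since the genes were chosen by their P301S values, the larger P301S medians are fixed in part by that choice. The difference between the genotypes was called for 7 genes, or 0.0394%, and only Ptgs2 and Fam107a of these were among the 73. Fam107a had 0.39 in P301S and -0.17 in WT (adjusted p = 0.312), with a difference of 0.56 (adjusted p = 0.0407) that was called in 6 of the 23 fits that omit 1 library. Without the 6 libraries low in choroid plexus markers no difference was called by edgeR, with 1035 genes at an unadjusted p below 0.05, and Ptgs2 and Fam107a had adjusted p values of 0.473 and 0.527. DESeq2 called 52 differences on all libraries.

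**Figure D4:**
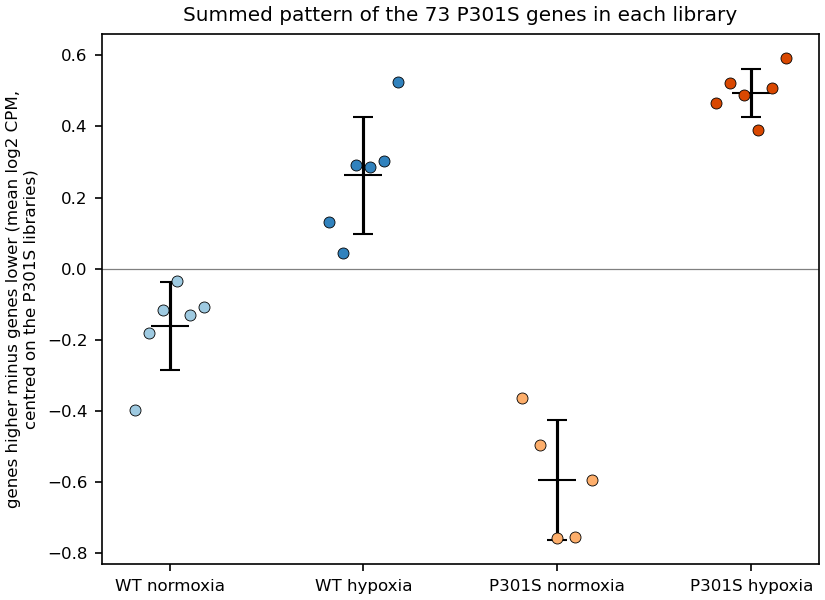
Mean log2 CPM of the 32 higher genes minus that of the 41 lower genes, centred on the P301S libraries, for each library with the mean ± SD of its group (n = 6, 6, 5 and 6). P301S hypoxia libraries lay at 0.39 to 0.59 and P301S normoxia libraries at -0.76 to -0.36, groups that the choice of genes sets apart, while WT hypoxia ran from 0.04 to 0.52 and WT normoxia from -0.4 to -0.04.

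The mean of the 32 higher genes minus that of the 41 lower ones, taken per library, summarised where the WT groups lay. P301S normoxia ran from -0.76 to -0.36 (median -0.6) and P301S hypoxia from 0.39 to 0.59 (median 0.5), as the choice of genes fixes. The WT contrast was not used to choose the genes, although the WT libraries entered the fit through its shared spread and scaling. By their medians the WT groups stood between those of P301S: -0.4 to -0.04 (median -0.12) in normoxia and 0.04 to 0.52 (median 0.29) in hypoxia. The WT groups did not overlap.

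Several lists of markers of other cell types and neighbouring tissue had lower medians in hypoxia, but the sums given here overlapped between the groups. All 17 choroid plexus markers tested were lower in hypoxia (median -0.655, from -1.13 to -0.37), none called, and summed to 1200 to 5460 CPM in normoxia and 321 to 4050 CPM in hypoxia. Ttr, the most abundant of them, had a mean of 1336 CPM in normoxia and 1034 CPM in hypoxia, and Kcnj13, which another gene overlaps over more than 90% of its length, had 0 counts. In WT their median was -0.916. All 14 meningeal and perivascular fibroblast markers were lower (median -0.525, sums 169 to 650 CPM and 110 to 391 CPM), against 0.266 in WT. All 14 ependyma and cilia markers were lower as well (median -0.406, sums 167 to 340 CPM and 138 to 270 CPM), as were 6 of 7 blood cell markers (median -0.637, sums 120 to 196 CPM and 99.5 to 130 CPM). An unadjusted p below 0.05 was found for 0 of the choroid plexus, 0 of the ependyma, 1 of the fibroblast and 3 of the blood cell markers. Over all 17788 genes tested it was found for 2450. Hypoxia replicates 1 and 4 had the lowest choroid plexus scores of the P301S libraries, -2.736 and -2.511. Their part in the falls of Ift43, Dedd and the other lower genes was not tested beyond the fits given here. A fit with the choroid plexus marker score as covariate called 47 genes, 42 of them among the 73.

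Markers of adjoining regions differed in their medians too, again with overlapping sums. Those of thalamus and habenula were lower for 11 of 14 genes (median -0.341, sums 248 to 365 CPM and 200 to 299 CPM), and those of neocortex and subiculum for 13 of 16 (median -0.207, sums 756 to 852 CPM and 679 to 804 CPM). Dentate granule neuron markers were higher for 10 of 12 (median 0.267, sums 580 to 753 CPM and 698 to 907 CPM), among them C1ql3 (0.38) and Pdzd2 (0.32). CA1 markers had a median of 0.027 and pan-neuronal markers of 0.082. None of these was called, and whether the makeup of the dissected tissue contributed to the rise in Bdnf or Npy or to the fall in Fos and Arc was not tested.

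Among glia, all 14 myelin markers were lower (median -0.168, sums 4590 to 5530 CPM and 3280 to 5050 CPM), 2 of them at an unadjusted p below 0.05. The lowest sum was that of hypoxia replicate 2 alone, and the other hypoxia libraries held 4181 to 5048 CPM, overlapping normoxia. Homeostatic microglia markers had a median of 0.015 over 12. Disease-associated microglia markers were lower for 9 of 13 and higher for 4 (median -0.11, from -1.52 to 0.3). Their sums overlapped, at 660 to 799 CPM in normoxia and 708 to 780 CPM in hypoxia, and 3 had an unadjusted p below 0.05. The 9 lower ones included Trem2 at -0.30 and Cst7 at -0.85. None of the microglia or myelin markers was called. Over all 17788 genes tested, 73 were called and 2450 had an unadjusted p below 0.05. The plot of marker scores shows the spread of each list over the 11 libraries.

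**Figure D5:**
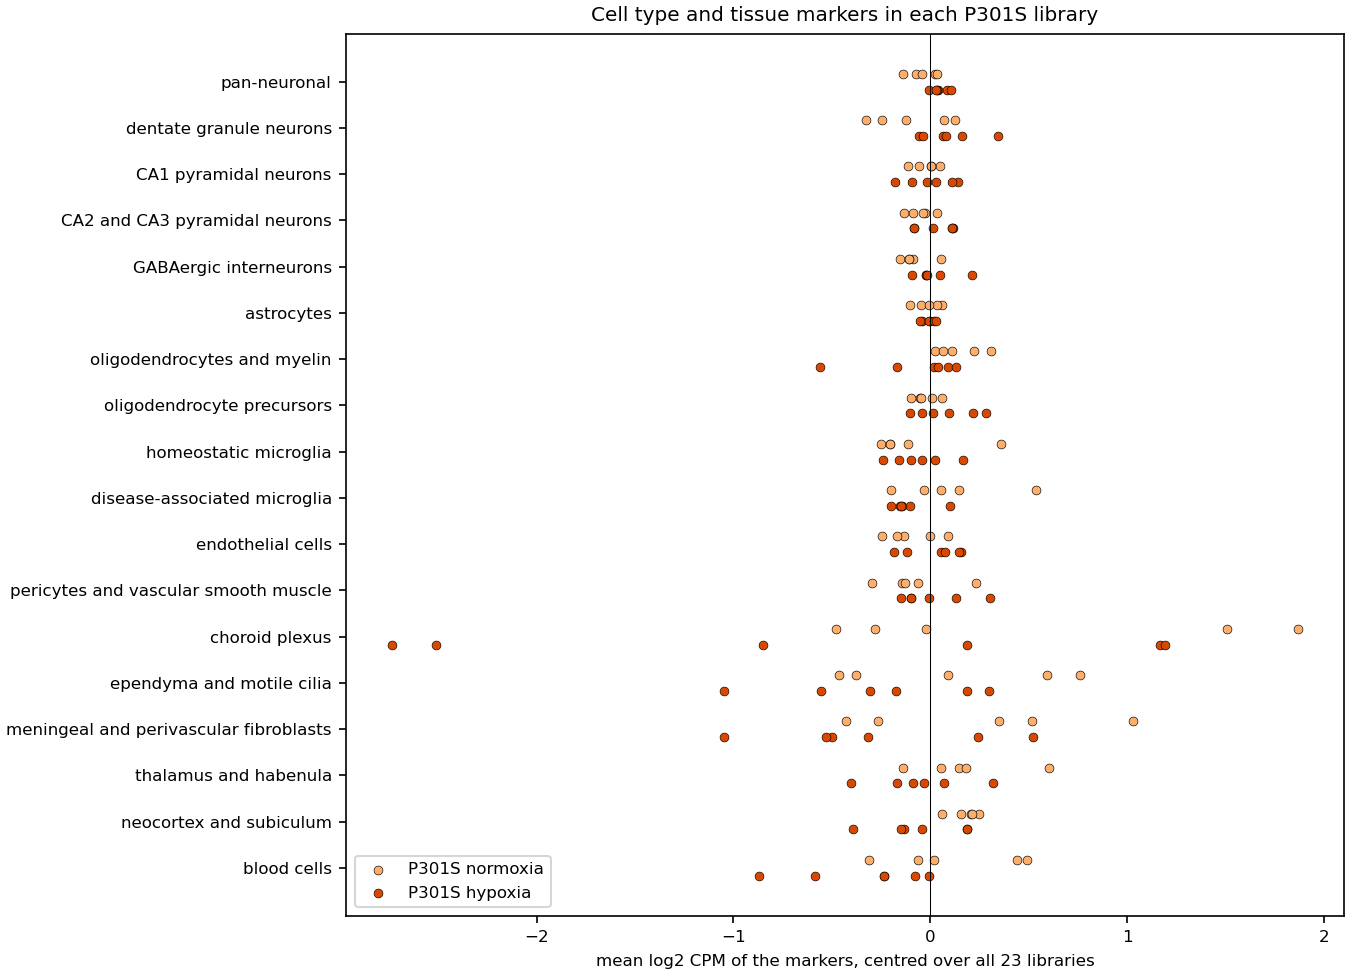
Mean log2 CPM of the tested members of 18 marker lists, centred over the 23 libraries, for the 5 normoxia and 6 hypoxia libraries of P301S, each point 1 library. Choroid plexus scores ran from -0.48 to 1.87 in normoxia and from -2.74 to 1.19 in hypoxia, and those of the pan-neuronal and CA1 lists stayed within 0.2 of 0.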

How the data were processed

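The authors deposited unnormalised counts: per the file headers, featureCounts 1.6.2 assigned read pairs to whole gene bodies (introns included) of Ensembl release 90 (GRCm38). The command set no strand, although the kit was stranded, and its inputs are named as free of duplicates. HISAT2, mm10 and DESeq2 1.6.3 appear in the submitters' processing notes. By default featureCounts drops reads shared by overlapping genes. GENCODE symbols matched 52403 of 52636 genes, and genes without one took 0.0427% to 0.101% of a library.

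Genes were filtered with filterByExpr (minimum count 10) and scaled by TMM in edgeR 4.0.16 (R 4.3.3, limma 3.58.1). A quasi-likelihood model with 4 group means and robust dispersions was fitted to all 23 libraries, with its newer (not legacy) method, a choice made after both were seen. Tests were two-sided with Benjamini-Hochberg adjustment over 17788 genes and a threshold of 0.05. Standard errors were the fold change over the square root of F. The script was tested on simulated data. Alternatives included DESeq2 1.42.0. Genes named are the called ones with at least 1 CPM and no predicted or clone name (60 of 73), up to 3 members per pathway list with the lowest p, and Mapt. Calr and the marker genes named beyond these were chosen after their values were seen. The members and the gene lists (826 of 891 entries tested, 41 of the others overlapped over more than 90% of their length) were chosen with earlier results of these data known. Of 6 genes looked for, 5 had a RefSeq promoter.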

Additional observations from a re-analysis of the deposited data

Results flagged for a closer look

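Of 278 combinations of a group with a named gene or marker list, 15 had 1 library standing apart from the rest of its group, where chance gives about 1 in 20. P301S hypoxia replicate 2 was the library apart in 4 of them: Sdf2l1 (13.6 CPM), Gabra2 (237 CPM), Flt4 (5.3 CPM) and Hspa1b (16.2 CPM) were each highest there. P301S normoxia replicate 1 was also apart in 4: Rpia (21.5 CPM), Tubb2a (368 CPM), Rpl4 (365 CPM) and the homeostatic microglia markers (0.361 on the centred log2 scale, against -0.25 to -0.115 in the rest).

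Hypoxia replicate 5 was highest for Sgk1 (120 CPM against 63.5 to 81.1 CPM) and lowest for Ap2b1 (462 CPM against 528 to 552 CPM), an adaptor subunit gene of clathrin-coated vesicles that was called higher. Hypoxia replicate 1 was highest for Fam107a (462 CPM against 366 to 400 CPM), and hypoxia replicate 3 for the disease-associated microglia markers (0.1 against -0.202 to -0.105). In normoxia, replicate 2 was highest for Hif3a (8.37 CPM against 4.99 to 5.79 CPM), replicate 4 for Arid3a (20.2 CPM) and replicate 5 for Kcna6 (22.1 CPM).

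The hypoxia effect differed between P301S and WT by a test of that difference for Ptgs2 (0.78 log2 units), Fam107a (0.56) and Hspa5 (0.81). The calls of Ptgs2 and Fam107a were kept in 4 and 6 of 23 omissions of 1 library, and no gene was called without the 6 libraries low in choroid plexus markers or with the older method of edgeR (1035 and 1650 genes at an unadjusted p below 0.05).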

How the results depend on the processing

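The 73 calls in P301S became 74 with DESeq2's size factors in edgeR, 79 with a stricter filter on low counts, 67 without robust estimation, 57 with the P301S libraries alone and 54 with the older method of edgeR, an alternative added after the data were seen. They became 363 with DESeq2 (206 higher and 157 lower, 61 shared with the 73), 38 with no filter, 47 with the choroid plexus marker score as covariate, 47 without the 6 libraries low in choroid plexus markers and 305 with trends in gene length and GC content removed (191 higher and 114 lower). Omitting each library in turn gave 2 to 156. The cause was not tested. The 7 differences between genotypes became 52 with DESeq2, 4 with no filter, 4 with the stricter filter, 13 with the covariate, and 0 without the 6 libraries and with the older method (1035 and 1650 genes at an unadjusted p below 0.05). Single omissions gave 0 to 13. The 13 WT calls became 151 with DESeq2, 4 with no filter, 4 with the WT libraries alone, 29 with the trends removed and 0 without the 6 libraries (998 unadjusted), and 2 to 29 with single omissions. None of the 73 genes called in P301S changed direction there, which their choice on these same libraries fixes in part. The median P301S change of all genes moved by less than 0.01. The difference between genotypes has no fit with 1 genotype alone. No paired analysis was possible because the replicate numbers only name libraries in accession order, and the number in the titles, whose meaning is unknown, differs in every P301S library.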
